A study of Mus musculus with 4 samples.

Results

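The genes described here are 9 signalling genes of the growth plate, namely Ihh, Ptch1, Gli1, Pthlh, Pth1r, Fgfr1, Fgfr2, Fgfr3 and Panx3. They were taken by gene symbol from a table of 55450 genes, and 8 of the 9 had at least 1 read in at least 1 library. The cells were articular chondrocytes from mouse femoral heads at 3 weeks of age, grown in serum-containing DMEM, and there was 1 RNA-seq library per condition. The wild-type library came from C57BL/6 mice. The Cart-miR-23clus KO library, here the cluster knockout, came from mice with miR-23a/b clusters flox/flox alleles and Col2a1-cre. Cre is driven there by Col2a1, so that by design the clusters are removed in cells of lineages in which Col2a1 has been active. The miR-26a KO library, here the miR-26a knockout, was labelled miR-26a -/-. The last library, here called the mimic library, was labelled miR-26a -/- with transfection of a double-stranded miR-26a mimic, and its strain was written C57BL6/J. Whether the miR-26a knockout received the negative control siRNA of the transfection protocol is not stated in the labels. The library labelled wild type appears in the methods as Control, which there means mice with floxed clusters. The number of animals behind each library was not given.

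In the growth plate, Indian hedgehog (Ihh) is secreted by prehypertrophic chondrocytes and binds Patched 1 (Ptch1), which releases Smoothened and switches on Gli transcription factors. Ptch1 and Gli1 are themselves transcribed in response to hedgehog, so their mRNA serves as a readout of the pathway. Ihh also maintains PTHrP (Pthlh), which is made near the joint surface, acts on its receptor Pth1r and holds chondrocytes back from hypertrophy. Fibroblast growth factor receptor 3 (Fgfr3) restrains chondrocyte proliferation, Fgfr1 is typical of hypertrophic chondrocytes, and Fgfr2 is used in the perichondrium and in bone-forming cells. Pannexin 3 (Panx3) forms channels in prehypertrophic chondrocytes and osteoblasts. Pth1r, Panx3 and Fgfr2 are expressed by osteoblasts as well as by cartilage cells.

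The microRNAs (miRNAs) of the removed clusters other than miR-23b-3p, and miR-26a-5p, are shown because their seeds define where they could pair with the 9 mRNAs. The mature sequences (RefSeq, GRCm38.p6) are written 5′ to 3′ with the seed, bases 2 to 8, in capitals. The miR-23a cluster lies on chromosome 8, with miR-23a-3p at chr8:84208563-84208583 and miR-27a-3p at chr8:84208727-84208747. In the miR-23b cluster, miR-27b-3p lies at chr13:63300760-63300780. The miR-24-3p sequence is encoded in both clusters, and miR-26a-5p is encoded on chromosomes 9 and 10. miR-27a-3p and miR-27b-3p share a seed.
miR-23a-3p: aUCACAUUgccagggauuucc
miR-27a-3p: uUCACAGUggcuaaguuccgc
miR-27b-3p: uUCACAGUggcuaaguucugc
miR-24-3p: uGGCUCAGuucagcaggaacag
miR-26a-5p: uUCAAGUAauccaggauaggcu

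The longest annotated 3′ UTR of each gene (GENCODE M21, GRCm38) was searched in the mRNA sense for the 7 bases complementary to each seed, AATGTGA for miR-23, ACTGTGA for miR-27, CTGAGCC for miR-24 and TACTTGA for miR-26a. The 9 genes held 6 matches. Ihh and Ptch1 had a match each to miR-23, and 17.3% of 11289 measured genes with a 3′ UTR had such a match. Ihh, Ptch1, Fgfr1 and Fgfr3 had a match each to miR-24, against 19.7% of the 11289. None of the 9 matched miR-27 or miR-26a, whose matches were found in 18.2% and 12.1% of the 11289. The median 3′ UTR had 1258 bases, whereas that of Ptch1 had 3205, that of Ihh 774, that of Pth1r 169 and that of Gli1 165. None of the 6 matches was followed by an A, which is the longer form of a seed match. The 6 sites are given below as mRNA-sense DNA with the 7 matched bases in capitals, and a match describes the letters only.
Ihh, miR-23 match, chr1:74945518-74945524, minus strand: ctctgatccgggcAATGTGAc
Ptch1, miR-23 match, chr13:63511138-63511144, minus strand: tggtagtgaccatAATGTGAc
Ihh, miR-24 match, chr1:74945559-74945565, minus strand: actcctccagcctcCTGAGCCt
Ptch1, miR-24 match, chr13:63509218-63509224, minus strand: tgtgtccctcatgcCTGAGCCt
Fgfr1, miR-24 match, chr8:25574479-25574485, plus strand: gatgtgcccttgggCTGAGCCc
Fgfr3, miR-24 match, chr5:33735922-33735928, plus strand: cttggtgccccaagCTGAGCCt

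Between 1336496 and 1505805 reads were counted on genes per library. With 1 library per condition the differences have no replicate check, no p-value is given, and intervals cover counting error only. They treat reads as independent, so they are too narrow where PCR reads, here without molecular identifiers, copy the same molecule. The loci of the targeted miRNAs gave no check of the labels, because Mir23a, Mir27a, Mir23b, Mir26a-1 and Mir26a-2 had 0 reads in every library. As to the labelled cell type, all 18 articular chondrocyte markers examined had reads in all 4 libraries, with Col2a1, the chain of type II collagen, at 25154 to 35871 reads. Osteoblast markers were also present. Col1a1, a chain of type I collagen, had 39203 reads in wild type, 7378 in the cluster knockout, 15172 in the miR-26a knockout and 19286 in the mimic library. Fewer cells of a type and less RNA per cell cannot be told apart in such bulk samples.

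The level of each gene is first given in CPM, that is reads scaled to the same library total, as in the plot of levels by library. Pth1r had 1087 CPM in wild type, 301.5 in the cluster knockout, 513.9 in the miR-26a knockout and 779 in the mimic library. Wild type was thus the highest library for Pth1r and the cluster knockout the lowest. Ihh and Gli1 had 15.9 CPM and 8.63 CPM in wild type, and Pthlh had 0 reads in every library, which allows up to 1.99 to 2.25 CPM (3 reads). The counting interval spanned 10.2 to 23.7 CPM for Ihh in wild type, so its level there was clear of the 0-read limit, whereas 4 reads or fewer of Gli1 were found in each of the other libraries.

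**Figure D1:**
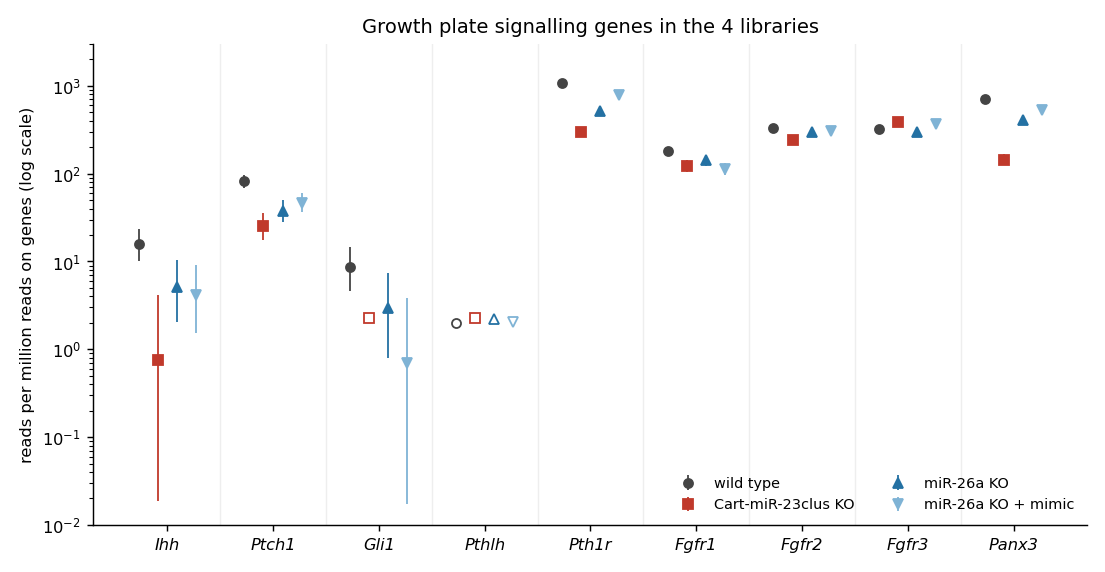
Level of each of the 9 genes in the 4 libraries, in CPM on a log axis. Filled symbols are single libraries with exact 95% Poisson intervals, and open symbols mark libraries with 0 reads at the limit of 3 reads. All genes with reads except Fgfr3 are highest in wild type, and Fgfr3 lies between 296.4 CPM in the miR-26a knockout and 387.6 CPM in the cluster knockout.

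Comparison of one gene with another depends on the length used. The deposited TPM correspond to 1 fixed length per gene, and for 64.2% of 9255 protein-coding genes this was the longest coding transcript. For Fgfr1 the TPM correspond to 453 bases, whereas its longest coding transcript has 5041 bases, 11.1 times as many. For Fgfr3 the lengths were 968 and 4245 bases, a factor of 4.38. Only 1.96% of the 9255 genes had a factor above 10, and 6.65% had one above 4. In the deposited TPM, Fgfr1 accordingly ranked at 2 among the 9 genes in wild type, with 572.6 TPM, and at 1 in the miR-26a knockout. On the longest coding transcript it had 67.1 TPM in wild type and ranked at 5 in every library, as it did in CPM. Ratios of 1 gene between libraries are not touched by this.

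**Figure D2:**
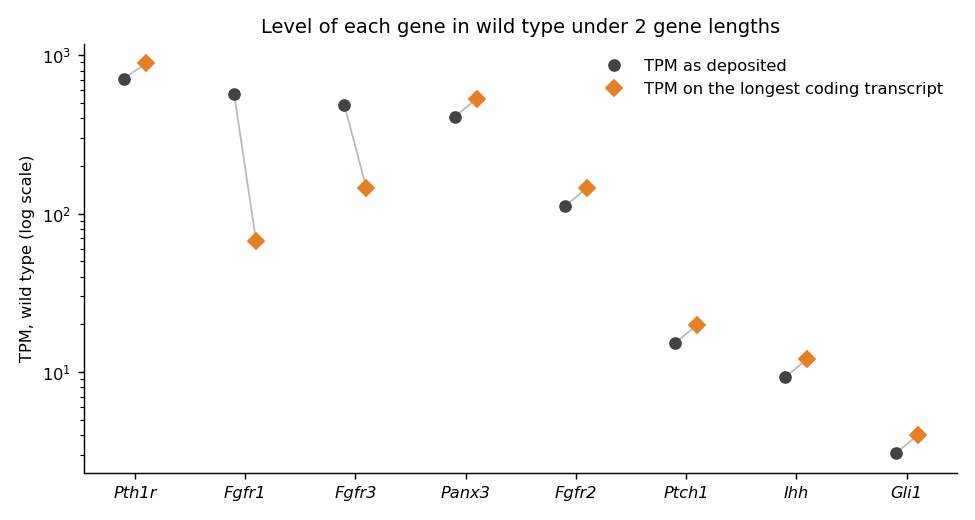
Level in wild type of the 8 genes with reads, in TPM on a log axis, as deposited (circles) and recomputed on the longest coding transcript (diamonds). Fgfr1 moves from 572.6 to 67.1 TPM and Fgfr3 from 486.5 to 144.7 TPM, while the others shift upward together.

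In TPM on the longest coding transcript, the order in wild type was Pth1r (886), Panx3 (532.3), Fgfr2 (145.1), Fgfr3 (144.7), Fgfr1 (67.1), Ptch1 (19.9), Ihh (12.1) and Gli1 (4.00). Fgfr2 and Fgfr3 were not separated by their counting intervals, nor were Ptch1 and Ihh. In the cluster knockout, Pth1r (238.5) was followed by Fgfr3 (166.6), and Panx3 (104.1) and Fgfr2 (102.3) were not separated. In the miR-26a knockout, Pth1r (421.4) and Panx3 (308.8) again led, and the intervals overlapped for Fgfr3 and Fgfr2, for Ptch1 and Ihh, and for Ihh and Gli1. Without division by length, which reads from 3′ ends do not need, Fgfr3 (387.6 CPM) stood above Pth1r (301.5 CPM) in the cluster knockout. Fgfr2 (241.7 CPM, 216 to 269.5) there stood above Panx3 (144.4 CPM, 124.8 to 166.3) without overlap. Ptch1 (81.68 CPM, 67.89 to 97.46) was likewise separate from Ihh (15.94 CPM, 10.21 to 23.71) in wild type. Ptch1 and Ihh were also separate in the miR-26a knockout, at 37.96 CPM (28.35 to 49.78) and 5.11 CPM (2.054 to 10.53). On the longest coding transcript, Fgfr3 (160.8 TPM) stood above Fgfr2 (130.7 TPM) in the mimic library without overlap of the intervals.

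The comparison of the cluster knockout with wild type asks what loss of the clusters does to chondrocyte transcripts. Both hedgehog readouts, the hedgehog ligand, the PTHrP receptor and the pannexin were lower in the cluster knockout, each past 2-fold, while the 3 FGF receptors differed by less than 2-fold. A gene was counted as past 2-fold when its TPM ratio was above 2 or below 0.5 and its 95% interval excluded 1. Of the 9 genes, 8 had the required 10 reads over the 2 libraries; 5 were lower past 2-fold and 0 were higher. Over all 11111 genes with enough reads, 3.80% were lower and 4.16% higher. The median log2 ratio was -1.80 over the 8 genes and -0.015 over the 11111. Of the 5 lower genes, Ihh and Gli1 reached 10 reads only through wild type, with 1 and 0 reads in the cluster knockout. With at least 20 reads in each library, 3 were lower.

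Ihh had 24 reads in wild type, 1 in the cluster knockout, 7 in the miR-26a knockout and 6 in the mimic library. It was thus highest in wild type, and its ratio of the cluster knockout to wild type was 0.0459 (95% interval 0.00112 to 0.281). Ihh (ENSMUSG00000006538) lies on chromosome 1 from 74945315 to 74951672. Ptch1, the hedgehog receptor (ENSMUSG00000021466, chromosome 13, 63508328 to 63573598), had 123, 34, 52 and 68 reads in the same order of libraries. The ratio was 0.304 (0.202 to 0.448), a 3.29-fold lower level. Gli1, a transcription factor that carries the signal (ENSMUSG00000025407, chromosome 10, 127329882 to 127341974), had 13, 0, 4 and 1 reads. Against the limit of 3 reads, Gli1 was at least 3.94-fold lower in the cluster knockout, with the wild-type reads taken as exact, and the upper end of the 95% interval of its ratio was 0.361. The ligand, the receptor and the target were therefore all highest in the wild-type library. The ligand and the target rest on 24 and 13 reads there.

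Pth1r, a G protein-coupled receptor for PTHrP and parathyroid hormone (ENSMUSG00000032492, chromosome 9, 110722085 to 110747145), had 1637 reads in wild type, 403 in the cluster knockout, 704 in the miR-26a knockout and 1129 in the mimic library. Its deposited TPM were 711.9, 193, 336.2 and 503.8. The ratio of the cluster knockout to wild type was 0.271 (0.242 to 0.302), or 3.69-fold lower. The ligand Pthlh (ENSMUSG00000048776, chromosome 6, 147252101 to 147264183) was not detectable at this depth in any library.

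Panx3, the channel gene (ENSMUSG00000011118, chromosome 9, 37659902 to 37669235), had 1079 reads in wild type, 193 in the cluster knockout, 566 in the miR-26a knockout and 771 in the mimic library. The TPM were 408.1, 80.4, 235.1 and 299.2. The cluster knockout was the lowest library, with a ratio to wild type of 0.197 (0.168 to 0.230), or 5.08-fold lower. In the other libraries Panx3 kept more than 0.5 of the wild-type TPM.

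None of the FGF receptors, the tyrosine kinases that bind fibroblast growth factors, was past 2-fold. Fgfr3 (ENSMUSG00000054252, chromosome 5, 33721674 to 33737068) had 492, 518, 406 and 532 reads in wild type, the cluster knockout, the miR-26a knockout and the mimic library. It was the only gene of the 8 with a higher level in the cluster knockout, with a ratio of 1.16 (1.02 to 1.31). Fgfr2 (ENSMUSG00000030849, chromosome 7, 130162451 to 133123350) had 501, 323, 410 and 439 reads and a ratio of 0.710 (0.615 to 0.818). Fgfr1 (ENSMUSG00000031565, chromosome 8, 25513654 to 25575718) had 271, 163, 196 and 166 reads and a ratio of 0.662 (0.542 to 0.807). Fgfr1 and Fgfr2 were thus lower with intervals below 1, but by less than 2-fold.

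**Figure D3:**
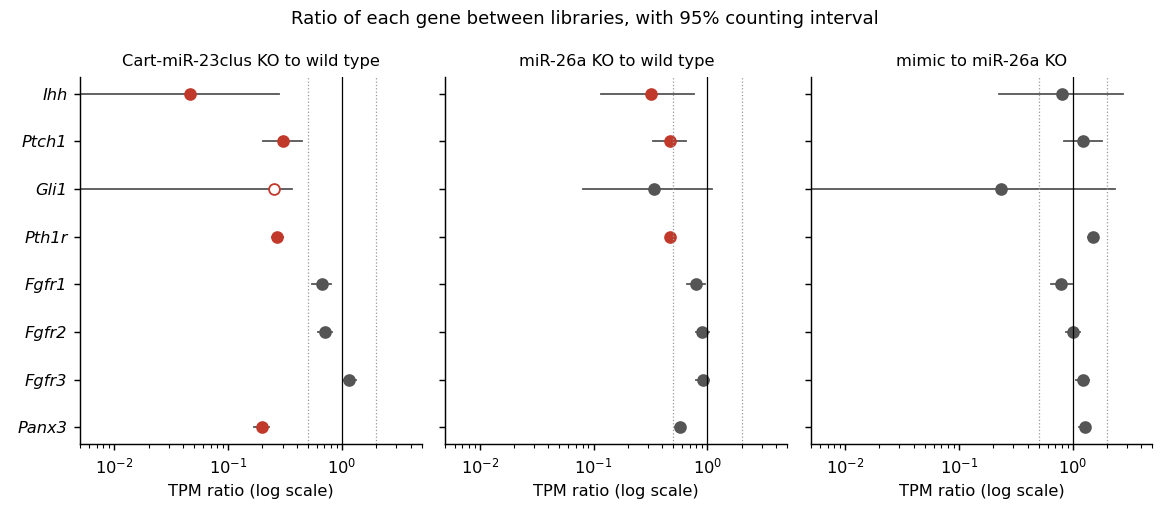
TPM ratio of each gene for 3 pairs of libraries, on log axes, with exact 95% counting intervals as bars that are cut at the left edge. Red symbols are past 2-fold (dotted lines at 0.5 and 2) with an interval that excludes 1, the open symbol is a bound from 0 reads, and the mimic ratio of Gli1 rests on 5 reads together. In the cluster knockout 5 genes are red and left of 0.5, in the miR-26a knockout 3 are, with Gli1 left of 0.5 but in grey, and in the mimic comparison none is.

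Against the same wild-type library, the miR-26a knockout had a ratio below 1 for all 8 genes, and 3 of them (Ihh, Pth1r and Ptch1) were lower past 2-fold. Over all 11107 genes with enough reads 2.74% were lower and 3.38% higher. The median log2 ratio was -0.93 over the 8 genes and 0.026 over the 11107. With at least 20 reads in each library, 2 were lower, since Ihh had 7 reads in the miR-26a knockout. Ihh had a ratio of 0.320 (0.117 to 0.766), Ptch1 of 0.464 (0.329 to 0.647) and Pth1r of 0.472 (0.432 to 0.516). Panx3 stayed on the near side of 2-fold with 0.576 (0.519 to 0.638). Gli1 had 4 reads against 13, and its interval of 0.0803 to 1.09 included 1. Fgfr1 had 0.794 (0.657 to 0.958), while the intervals of Fgfr2 (0.899, 0.787 to 1.03) and Fgfr3 (0.906, 0.793 to 1.04) included 1. Because the comparisons of both knockouts used 1 wild-type library, a high value in that library lowers both ratios.

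The comparison of the mimic library with the miR-26a knockout asks what returning miR-26a does to these transcripts. None of the 7 genes with enough reads was past 2-fold, and the median log2 ratio was 0.29, against -0.007 over 11016 genes, of which 1.39% were higher and 1.06% lower. Fgfr1 was lower with 0.791 (0.640 to 0.978), and Ihh had 6 reads against 7, with a ratio of 0.801 (0.222 to 2.78). Pth1r was higher with 1.50 (1.36 to 1.65), Panx3 with 1.27 (1.14 to 1.42) and Fgfr3 with 1.22 (1.07 to 1.40). The interval of Ptch1 (1.22, 0.839 to 1.79) included 1, and Fgfr2 had a ratio of 1.00 (0.872 to 1.15). Pth1r and Panx3 were still below wild type in the mimic library, at 0.708 (0.655 to 0.764) and 0.733 (0.668 to 0.805) of its TPM. Relative to wild type, 2 of 8 genes were lower past 2-fold in the mimic library and 0 higher, against 2.41% and 3.12% of all 11102 genes. The 2 were Ihh, with 6 reads against 24 in wild type, and Gli1, with 1 against 13. Both had enough reads only through the wild-type library, so the whole count rests on that library's reads of these genes. For Ihh the ratio of the mimic library to wild type was 0.257 (0.0858 to 0.644) and for Gli1, with 1 read, 0.0789 (0.00186 to 0.526).

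With the other knockout in place of wild type, the ratios of the cluster knockout lay nearer to 1 for Panx3, Pth1r and Ptch1. Relative to the miR-26a knockout, 1 of 6 genes with enough reads was lower past 2-fold, which was Panx3 at 0.342 (0.289 to 0.403), and 2.97% of all 11033 genes were lower and 3.30% higher. Pth1r was at 0.574 (0.506 to 0.650) and Ptch1 at 0.656 (0.412 to 1.03). Fgfr3 was again higher, at 1.28 (1.12 to 1.46). Relative to the mimic library, Panx3 at 0.269 (0.228 to 0.315) and Pth1r at 0.383 (0.341 to 0.429) were lower past 2-fold, against 3.19% of 11052 genes, with 2.52% higher. Panx3 was thus past 2-fold lower in the cluster knockout against each of the other 3 libraries.

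Of 38 other hedgehog genes, 26 had enough reads in the comparison of the cluster knockout with wild type, 1 was lower and 1 higher past 2-fold (3.85% each, against 3.80% and 4.16% of all genes), and the median log2 ratio was -0.01. The lower gene was Ccnd1, which encodes cyclin D1 and had the most reads of the list in wild type. It had 1276 reads there, 538 in the cluster knockout, 1139 in the miR-26a knockout and 1305 in the mimic library. Its ratio was 0.464 (0.419 to 0.514). The higher gene was Foxf1, a forkhead factor chosen for mention after its values were seen, with 3 and 13 reads and a ratio of 4.77 (1.31 to 26.1), and it is not counted under a minimum of 20 reads per library. Smo, the signal transducer under Ptch1, had 84 and 64 reads with a ratio of 0.839 (0.596 to 1.18), and Gli3, the main repressor, had 45 and 42. Gli2 had 12 and 3 reads, and its interval of 0.0498 to 1.02 included 1. Shh had 0 reads in every library, and Hhip, a decoy receptor induced by hedgehog, had 1 read at most. Of 26 hedgehog genes in the miR-26a knockout, 2 were higher (Gas1 and again Foxf1) and 0 lower, with a median of -0.04, against 3.38% and 2.74% of all genes. Under a minimum of 20 reads per library, Gas1 alone was higher. Gas1, a hedgehog co-receptor, had 589 reads there against 247 in wild type, a ratio of 2.62 (2.25 to 3.05), and 426 reads in the cluster knockout.

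Of 39 other genes of the PTHrP pathway, 32 had enough reads in the cluster knockout and wild type, 2 were lower and 1 higher (6.25% and 3.12%, against 3.80% and 4.16% of all genes), and the median log2 ratio was -0.10. Mef2c, a transcription factor that promotes hypertrophy, had 186 reads in wild type, 45 in the cluster knockout, 80 in the miR-26a knockout and 84 in the mimic library, with ratios to wild type of 0.266 (0.188 to 0.371) in the former knockout and 0.472 (0.359 to 0.617) in the latter. Hdac4, which binds and represses Mef2 factors, had 42 and 14 reads and a ratio of 0.367 (0.185 to 0.685) in the cluster knockout. Fos, an immediate early gene that PTHrP induces, was higher in both knockouts, at 3.11 (2.00 to 4.97) in the cluster knockout and 2.08 (1.29 to 3.41) in the miR-26a knockout, from 28 reads in wild type. The coupling protein Gnas, which follows Pth1r, had 1291 and 1366 reads and a ratio of 1.17 (1.08 to 1.26) in the cluster knockout, and Atf4, the gene of this list with the most reads in wild type, had 0.911 (0.840 to 0.988). Of 31 PTHrP pathway genes in the miR-26a knockout, 2 were higher (Fos and Crem) and 1 lower (Mef2c), with a median of -0.11, while 3.38% of all genes were higher and 2.74% lower. Crem had 8 reads in wild type and 18 in the miR-26a knockout (2.47, 1.02 to 6.57). With TMM, or under a minimum of 20 reads per library, 1 was higher and 1 lower. The alternative ligand Pth and receptor Pth2r had 0 reads throughout.

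Of 46 other FGF genes, 27 had enough reads in the cluster knockout and wild type, 3 were lower and 0 higher (against 3.80% and 4.16% of all genes), and the median log2 ratio was -0.09. Under a minimum of 20 reads per library, 1 was lower. Gpc1, the heparan sulfate proteoglycan glypican 1, had 733, 231, 417 and 612 reads in wild type, the cluster knockout, the miR-26a knockout and the mimic library, and a ratio of 0.347 (0.298 to 0.403). Flrt2, a membrane protein that binds FGF receptors, had 23 and 8 reads (0.383, 0.148 to 0.887), and Spred2, an inhibitor of the pathway named after its values were seen, had 13 and 1 (0.0847, 0.00199 to 0.564). Cdkn1a, the cell cycle inhibitor that Fgfr3 signalling induces, had the most reads in wild type, 1037 against 534, with a ratio of 0.567 (0.510 to 0.630). The growth plate ligands Fgf9 and Fgf18 had at most 1 read in any library, and Fgfr4 likewise. Fgfrl1, a receptor without a kinase domain, had 510 and 427 reads (0.922, 0.809 to 1.05). Of 25 FGF genes in the miR-26a knockout, 3 were higher (Etv5, Fgf2 and Flrt3) and 1 lower (Frs2), with a median of -0.24, against 3.38% and 2.74% of all genes. Under a minimum of 20 reads per library, 0 were higher and 1 lower. Etv5, a transcription factor induced by FGF, was at 3.29 (1.62 to 7.23) from 11 reads in wild type, the ligand Fgf2 at 2.05 (1.06 to 4.13), and Frs2, the docking protein of the receptors, at 0.452 (0.258 to 0.765).

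Among 22 other channel genes and their partners, none of the 11 with enough reads was past 2-fold in the cluster knockout, and the median log2 ratio was 0.14. Of all genes, 3.80% were lower and 4.16% higher there. Gja1, the connexin of osteoblasts and chondrocytes, had 271 and 179 reads and a ratio of 0.727 (0.599 to 0.882). The paralogs Panx1 and Panx2 had 13 and 1 reads in wild type, against 1079 of Panx3. In the miR-26a knockout, Itpr1, a calcium channel of the endoplasmic reticulum, was the single gene of 10 past 2-fold, at 2.08 (1.38 to 3.18), where 3.38% of all genes were higher and 2.74% lower. In the comparison of the mimic library with the miR-26a knockout no gene of these 4 lists was past 2-fold in TPM (1 of the PTHrP list was higher under CPM or TMM), and their medians lay between -0.07 and 0.10. Of all genes, 1.39% were higher and 1.06% lower in that comparison.

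Regulators of growth plate zones gave counts in both directions. Of 26 genes, 18 had enough reads in the cluster knockout and wild type, and their median log2 ratio was -0.26. Of the 18, 5 were lower (Sp7, Mef2c, Runx3, Bmp2 and Nog) and 3 higher, against 3.80% and 4.16% of all genes. Under a minimum of 20 reads per library, 3 were lower and 3 higher. Nog had 19 reads in wild type and 6 in the cluster knockout. Sp7, the osteoblast factor osterix, had 161 and 49 reads (0.335, 0.238 to 0.464), Runx3, a Runt factor of maturing chondrocytes, 125 and 47 (0.414, 0.290 to 0.583), and Bmp2, a bone morphogenetic protein, 24 and 7 (0.321, 0.117 to 0.768). Runx2, the factor that drives hypertrophy and Ihh transcription, had 47 and 33 reads, and its ratio of 0.773 (0.480 to 1.23) had an interval that included 1. Sox9, the chondrocyte factor with the most reads, was at 0.938 (0.881 to 0.998). Igf1, a growth factor, was higher at 3.26 (2.37 to 4.56), the secreted chaperone Clu at 2.63 (2.25 to 3.08) and the microtubule regulator Stmn1 at 2.01 (1.30 to 3.15). In the miR-26a knockout 2 of 19 were lower and 0 higher (against 2.74% and 3.38% of all genes, and 1 lower under a minimum of 20 reads per library), with Mef2c as above and Cdkn1c, the cell cycle inhibitor p57, at 0.152 (0.0754 to 0.278), from 87 reads to 12.

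**Figure D4:**
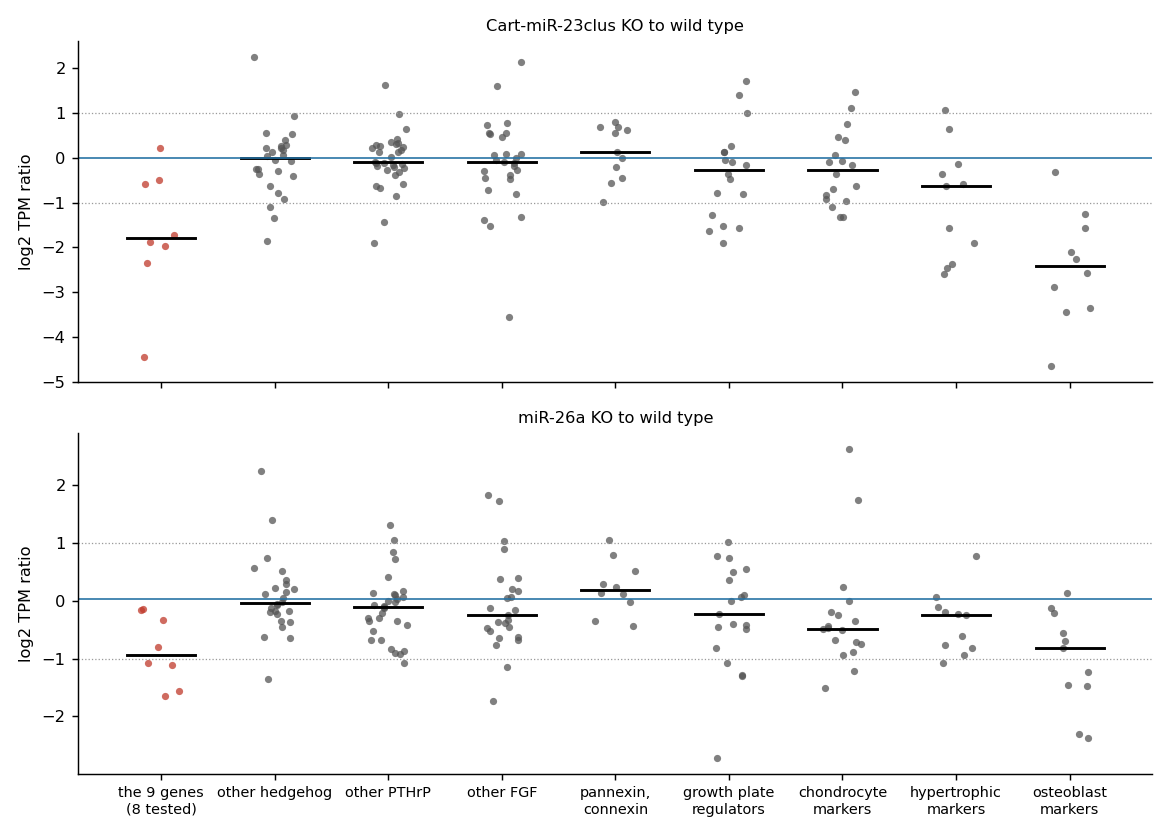
Log2 TPM ratio to wild type in the cluster knockout (top) and the miR-26a knockout (bottom) for genes with at least 10 reads over the 2 libraries. Each point is 1 gene, black bars are medians, the blue line is the median of all genes and dotted lines mark 2-fold; in the top panel the osteoblast markers have a median of -2.41 and the 9 genes one of -1.80, and in the bottom panel these are -0.82 and -0.93.

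Markers of bone-forming cells moved with these differences. In the cluster knockout 9 of 10 osteoblast markers with enough reads, of 17 in the list, were lower past 2-fold, against 3.80% of all genes, with a median log2 ratio of -2.41. Under a minimum of 20 reads per library, 4 were lower. The summed level of the list was 39415 CPM in wild type, 11070 in the cluster knockout, 22225 in the miR-26a knockout and 23376 in the mimic library, and Bglap3, Mepe and Sost had 0 reads throughout. Col1a1 had a ratio of 0.207 (0.202 to 0.212) and Col1a2 of 0.417 (0.406 to 0.428). In the miR-26a knockout 5 of 11 osteoblast markers (Bmp3, Col1a1, Ifitm5, Smpd3 and Tmem119) were lower, against 2.74% of all genes, with a median of -0.82 (3 under a minimum of 20 reads per library). In the mimic comparison 0 of 10 were past 2-fold, where 1.39% of all genes were higher and 1.06% lower. Ihh, Ptch1, Gli1, Pth1r, Fgfr2 and Panx3 were likewise lowest in the cluster knockout and highest in wild type. The part of these markers in the differences of the 9 genes was not tested.

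Hypertrophic chondrocyte markers summed to 10228, 4002, 7388 and 7986 CPM in the same order, with Phospho1 at 0 throughout. Of 11 with enough reads, out of 13, 5 were lower in the cluster knockout, namely Alpl, Ibsp, Mef2c, Sgms2 and Sp7, and 1, Spp1 (osteopontin), was higher at 2.09 (1.94 to 2.24), against 3.80% and 4.16% of all genes. Of 11 in the miR-26a knockout 1 was lower (Mef2c) and 0 higher, against 2.74% and 3.38% of all genes. The list shares Sp7 with the osteoblast list, Mef2c with the PTHrP list, and Sp7, Mef2c and Runx2 with the list of zone regulators. In wild type most of its reads came from Ibsp, bone sialoprotein, which also marks osteoblasts and had 10938, 1653, 5837 and 6393 reads (ratio 0.166, 0.158 to 0.175). Mmp13, the collagenase of late hypertrophy, was at 0.650 (0.597 to 0.709). Col10a1, the collagen that defines hypertrophic chondrocytes, did not share this direction. It had 105, 148, 82 and 121 reads, and its ratio of the cluster knockout to wild type was 1.55 (1.20 to 2.01).

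Articular chondrocyte markers summed to 41853 CPM in wild type and 31105 to 31756 CPM in the other libraries, with 3 of 18 lower (Col11a1, Matn1 and Ucma) and 2 higher (Chad and Prg4) in the cluster knockout, against 3.80% and 4.16% of all genes. In the miR-26a knockout 2 were lower (Matn1 and Ucma) and 2 higher (Chad and Prg4), against 2.74% and 3.38%. Col2a1 was at 0.772 (0.760 to 0.785) in the cluster knockout and Acan, the main cartilage proteoglycan, at 0.896 (0.860 to 0.934). Macrophage markers, 18 in the list, summed to 907.2 CPM in wild type, 1045 in the cluster knockout, 311 in the miR-26a knockout and 581.7 in the mimic library. Of 15 with enough reads, 10 were lower past 2-fold in the miR-26a knockout (2.74% of all genes) and 0 in the cluster knockout. In the mimic library 5 of 13 were higher than in the miR-26a knockout (1.39% of all genes). Under a minimum of 20 reads per library, these counts were 3 lower and 0 higher. Under CPM or DESeq2 size factors 2 were higher in the cluster knockout than in wild type. Lyz2, a macrophage lysozyme with 712, 633, 222 and 396 reads, led the list. Adipocyte markers summed to 434.3, 1360, 306.6 and 336 CPM, with 5 of 6 (Car3, Fabp4, Lpl, Plin4 and Pparg) higher in the cluster knockout (4.16% of all genes), Lpl at 2.02 (1.77 to 2.31) and Car3 at 4.96 (4.09 to 6.07), and Cidec and Lep at 0. Smooth muscle markers summed to 264.3, 517, 267.2 and 338.8 CPM, with Acta2 at 2.04 (1.78 to 2.35) and Tagln also higher in the cluster knockout (2 of 4, and 1 under a minimum of 20 reads per library, against 4.16% of all genes), and Myh11, Mcam and Rgs5 at 0. Fibroblast and synovial markers summed to 3723, 2638, 4203 and 4078 CPM, led by Dcn and Col3a1, with 1 of 8 (Dpt) lower in the cluster knockout and 2 of 8 (Ly6a and Thy1) higher in the miR-26a knockout, against 3.80% and 3.38% of all genes. Under a minimum of 20 reads per library, these counts were 0 and 1. Endothelial markers summed to 11.9 to 24.7 CPM with Cdh5, Cldn5, Tek and Tie1 at 0, and the erythroid markers in the table had 0 reads. The part of these cell types in the differences of the 9 genes was not tested either.

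The pattern of each gene over the 4 libraries was set against 8674 genes with at least 50 reads, as the distance between centred log2(TPM + 0.5) values. With 4 libraries these are descriptions, and none of the genes named below was among the 3 nearest when Pearson correlation was used in place of the distance. The genes nearest to Pth1r were Myl6b, Ccn4 and Nrp2 (0.158, 0.204 and 0.224), those nearest to Ptch1 were Wdr4, Sp7 and Fam89a (0.174, 0.185 and 0.228), and those nearest to Panx3 were Frmd6, Alpl and Ibsp (0.263, 0.266 and 0.284). Alpl, the alkaline phosphatase gene, had 701, 122, 418 and 612 reads in wild type, the cluster knockout, the miR-26a knockout and the mimic library. Fgfr1 lay nearest to Rhobtb3, Cnot1 and Rps6kb2 (0.0396, 0.0533 and 0.0553), Fgfr2 to Gnl3l, Ssr1 and Atg5 (0.00924, 0.0287 and 0.0404), and Fgfr3 to Nans, Clic4 and Socs6 (0.0380, 0.0413 and 0.0489). Within the 9 genes, Pth1r was nearest to Ptch1 (0.390) and then to Panx3 (0.538), Fgfr2 was nearest to Fgfr1 (0.388), and Panx3 and Fgfr3 were farthest apart (1.92). Ihh, Gli1 and Pthlh had too few reads for a pattern.

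The 300-base promoter windows of RefSeq (GRCm38.p6), which span the transcription start, were at hand for 6 of the 9 genes, Ihh, Pthlh, Pth1r, Ptch1, Fgfr2 and Fgfr3, in 9 windows. They were searched on both strands for the GLI motif GACCACCCA, its core CCACCCA, the RUNX motif TGTGGT and the cyclic AMP response element TGACGTCA. None of the 9 windows held any of them, whereas 0.253%, 9.30%, 16.8% and 1.79% of 32851 windows did. The absence of these letters from the windows does not bear on the binding of the factors.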

How the data were processed

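QuantSeq 3′ mRNA libraries (FWD) were read as single-end reads of 75 bases and mapped by the authors to mm10 (GRCm38.p6 in the submitters' notes). The aligner and the counting tool were not given in the sources used here. The deposited estimated count of each gene, a whole number of reads without normalization, covers 3 libraries and 55450 genes. The deposited TPM were made by the authors from reads divided by 1 length per gene, for 55141 genes in 4 libraries. Division by length does not suit reads from 3′ ends when genes are compared, and cancels in a ratio. The mimic library has TPM only. Its reads (1449246) were recovered from the steps of its TPM, where 14429 of 14429 values tested were whole within 0.02 reads and 588 genes were not recovered.

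Ratios of TPM were given exact 95% Clopper-Pearson intervals on reads, and a library at 0 was set to 3 reads. Genes needed 10 reads over the 2 libraries. With 1 library per condition no test was made. Lengths implied by TPM were read against GENCODE M21, and 98.95% of 955 genes with 1 transcript came within 1% of it. Named were the 9 genes, members of pathway lists with at least 20 reads past 2-fold, the member with the most reads in wild type, the 2 leading genes of each marker list, and the 3 genes nearest in pattern. Further genes were named after their values were seen. Some genes the rule picks are not reported here. The 9 genes and the lists were chosen with earlier results of these data known. The alternatives were CPM, TMM (edgeR 4.0.16), size factors (DESeq2 1.42.0), other read minima, a 99% interval, a 1.5-fold threshold, a pseudocount of 0.5 TPM, other comparison libraries, Pearson correlation and longer seed matches. The TPM on the longest coding transcript was added after seeing the data. The steps were tested on simulated data. Software was R 4.3.3 and Python 3.11.15 with scipy 1.17.1, numpy 2.4.6, matplotlib 3.10.9 and pandas 2.3.3.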

Additional observations from a re-analysis of the deposited data

How the results depend on the processing

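No paired analysis was possible because 1 library was made per condition. The counts of 5, 3 and 0 genes past 2-fold in the cluster knockout, the miR-26a knockout and the mimic comparison were the same with CPM, TMM, DESeq2 size factors, no read minimum and a 99% interval, and were 6, 4 and 0 at 1.5-fold. With at least 20 reads in each library the count for the cluster knockout was 3, since Ihh and Gli1 could not enter, and that for the miR-26a knockout was 2. With the miR-26a knockout as the comparison library it was 1 and against the mimic library 2. For the miR-26a knockout the count was 1, in the higher direction, against the cluster knockout, and 0 against the mimic library. For the mimic library it was 2 against wild type. These were Ihh and Gli1, which had enough reads only through wild type. Of 92 ratios of single genes under other scalings or with 0.5 TPM added, 92 kept their direction and moved by less than the counting interval. With 0.5 TPM added, however, the ratio of the cluster knockout to wild type became 0.0945 in place of 0.0459 for Ihh, and 0.140 in place of the bound of 0.254 for Gli1. The rank of Fgfr1 by level, 2 in wild type and the cluster knockout, 1 in the miR-26a knockout and 3 in the mimic library in deposited TPM, became 5 in each under CPM and on the longest coding transcript. The 6 seed matches became 0 with 8 bases. None of the genes nearest in pattern was among the nearest by Pearson correlation, and 16 of 168 counts of listed genes moved by over 1.5 times. Pthlh, with 0 reads, and Ihh and Gli1, with few, are limited by depth.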
